A study of Mus musculus with 6 samples.

Results

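The citric acid cycle was followed through 9 nuclear genes for its enzymes, Suclg1, Suclg2, Sucla2, Cs, Idh3a, Ogdh, Dlst, Fh1 and Mdh2, in bulk RNA-seq of mouse Tregs with and without Zfp335. The genes were found by their symbols among the 32285 rows of the count table, and 9 of 9 were among the 17307 genes that passed the expression filter and were tested. The 6 libraries came from CD4+CD25+ cells sorted from the spleens of C57BL/6 mice, 3 from control mice (WT) and 3 from ERCre+Zfp335f/f mice (KO), in which Cre recombinase is fused to an estrogen receptor and excises the floxed gene once tamoxifen is given. The paper's methods give mice 6 weeks old and 3 injections of tamoxifen (10 mg/mL) in volumes of 100 μL. Cells were taken on day 7. The labels call the controls wild-type littermates and mention no tamoxifen, whereas the paper describes them as ERCre mice given tamoxifen. Whether the controls carried Cre or received tamoxifen was left as each source states it. If the controls lacked either, its effect cannot be told apart from the loss of Zfp335 in any result below. The promoter driving Cre is not given in the sources used here, nor is it stated whether a library came from 1 mouse or a pool. The p-values thus measure the spread between these libraries, which may not be the spread between mice.

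The citric acid cycle runs in the mitochondrial matrix, where it oxidizes the acetyl group of acetyl-CoA and passes electrons to the respiratory chain. Citrate synthase starts it, isocitrate dehydrogenase and the α-ketoglutarate dehydrogenase complex release carbon dioxide, and succinyl-CoA ligase then forms succinate together with GTP or ATP before fumarase and malate dehydrogenase restore oxaloacetate. Succinyl-CoA ligase pairs a common α subunit, encoded by Suclg1, with 1 of its β subunits: Suclg2 gives the GDP-dependent enzyme and Sucla2 the ADP-dependent enzyme. The study selected Suclg1 in single-cell data from Foxp3Cre mice and added malate, a cycle intermediate, to cultured Tregs. It examined Suclg1 again in the present libraries and reported it lower without Zfp335. It also reported this for heterozygous Foxp3Cre/+ Zfp335fl/fl mice. The Suclg1 values below are therefore not independent of what the study reported.

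Library totals ran from 133283969 to 209041812 counts. Zfp335 was counted at 124.4, 120.7 and 115.2 CPM (counts relative to the scaled library size, in edgeR's unit) in WT and at 15.0, 14.3 and 15.1 CPM in KO, and its log2 fold change (KO against WT) was -3.02 (SE 0.046, adjusted p = 1.2e-13, edgeR). The labelled cell type was checked on Cd3e, Cd4, Foxp3, Il2ra, Ctla4, Ikzf2 and Tnfrsf18, which summed to 3575 to 3622 CPM in WT and 3669 to 3724 CPM in KO. Of these 7 genes, Foxp3 and Il2ra were lower and Ctla4 and Tnfrsf18 higher in KO by edgeR, and limma-voom did not call Tnfrsf18. The largest change of the 7 was that of Ctla4, from a mean of 410.3 CPM in WT to 645.3 CPM in KO. Mean Foxp3 fell from 1136 to 1052 CPM, so the higher sum in KO does not hold for each gene. RNA of other cells was present at a low level. Of 19 marker genes of other cells, 13 were lower and 0 higher in KO by edgeR, DESeq2 and limma-voom alike. Of all genes tested, 12.1% were lower and 12% higher by edgeR. The myeloid marker Csf1r was the only 1 of the 19 higher at an unadjusted p under 0.05, at 9.26, 9.51 and 7.63 CPM in WT and 10.3, 9.74 and 10.9 CPM in KO. Summed B cell markers were 45.4 to 49.5 CPM in WT and 21.1 to 23.0 CPM in KO, myeloid markers 37.7 to 43.2 and 20.001 to 21.9 CPM, and red cell markers 26.4 to 30.9 and 1.31 to 1.59 CPM. Summed CD8 T cell markers (8.34 to 9.71 and 8.62 to 8.65 CPM) and NK cell markers (22.4 to 24.7 and 23.9 to 26.2 CPM) overlapped between the groups. Xist, the RNA that coats the inactive X chromosome of female cells, was 0.187 to 0.424 CPM in WT and 123.9 to 144.7 CPM in KO, while the Y-linked gene Ddx3y was counted in all 6 libraries, at 98.3 to 105.2 CPM in WT and 76.6 to 80.0 CPM in KO. Each KO library thus held both Xist and Y-linked RNA, and whether it pooled mice of both sexes was not tested. The labels give no sex, and the difference that Xist shows cannot be told apart from the genotype in any result below.

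Of the 9 cycle genes, Suclg1 and Cs were lower in KO, Dlst was slightly higher, and the other 6 did not pass the test. By mean CPM, Suclg1 fell by 33.5% and Cs fell by 26.1%, whereas Dlst was 9.29% higher. A gene was called at an adjusted p under 0.05 in the quasi-likelihood test of edgeR, adjusted by the Benjamini-Hochberg method across the 17307 genes. Thus 2 of 9 were called lower, against 12.1% of all genes tested, and 1 of 9 higher, against 12% of all genes tested, and 3 called genes are too few to set the cycle apart from other genes. Without WT replicate 1, Sucla2 and Idh3a were also called, which made 4 of 9 lower. The median log2 fold change of the 9 genes was -0.076, and that of all genes tested was -0.0042 with quartiles of -0.17 and 0.14. In bulk RNA, fewer cells of a type and less RNA per cell cannot be told apart.

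**Figure D1:**
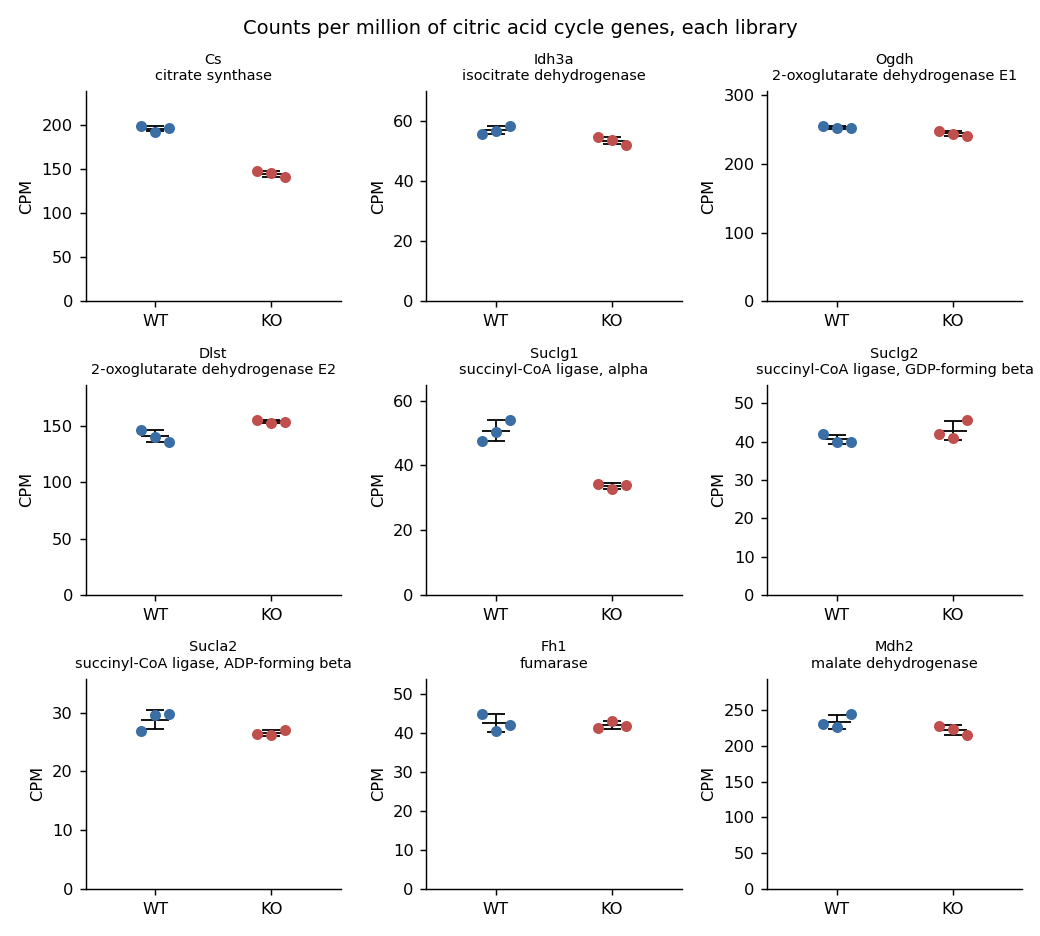
CPM of each of the 9 cycle genes, on an axis from 0 in each panel, with 1 point per library (3 WT, 3 KO) and a bar at the group mean with its SD. The KO points of Suclg1 (32.8 to 34.4 CPM) and Cs (141.0 to 147.5 CPM) lie well below their WT points, while those of Suclg2, Sucla2, Fh1 and Mdh2 overlap with WT.

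Suclg1, the α subunit of succinyl-CoA ligase, had the largest log2 fold change in size among the 9, while Cs fell by more in CPM. It was counted at 47.6, 50.4 and 54.1 CPM in WT replicates 1, 2 and 3 and at 34.4, 32.8 and 33.95 CPM in KO replicates 1, 2 and 3, from at least 6129 counts in each library. The KO libraries were all below the WT libraries and lay closer together than the WT libraries did. The mean fell from 50.7 ± 3.25 CPM (SD, n = 3) to 33.7 ± 0.828 CPM (SD, n = 3). The log2 fold change was -0.59 (SE 0.050, 95% confidence interval -0.69 to -0.48, adjusted p = 2.09e-06, edgeR), which 8.78% of the genes tested equalled or went below. Suclg1 lies on chromosome 6 of GRCm38 from 73248382 to 73276911 on the plus strand and has 9 exons in its longest principal transcript. For its bulk RNA-seq of Foxp3Cre Tregs, the study called genes with DESeq2 at 1.5-fold, p under 0.05 and adjusted p under 0.1. With these cutoffs set on the edgeR fit here, Suclg1 was the only 1 of the 9 genes past them. It stood at a fitted 1.502-fold and so barely over the line. Its fold was under 1.5 with limma-voom or no expression filter (log2 fold change -0.583 in both), and without WT replicate 3 (-0.54) or KO replicate 2 (-0.57). Of all genes tested, 4.37% were past the cutoffs in the lower direction and 2.58% in the higher direction in the edgeR fit.

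Neither β subunit of the same enzyme passed the test. Suclg2, the GDP-dependent β subunit, was counted at 41.9, 40.0 and 39.8 CPM in WT and 42.1, 40.9 and 45.7 CPM in KO, and the groups overlapped. Its log2 fold change was 0.078 (95% confidence interval -0.028 to 0.18, adjusted p = 0.288, edgeR), and without KO replicate 3 it was 0.030. Suclg2 (chromosome 6, 95473009 to 95718800, minus strand) shared 15.96% of its 50-base stretches with the processed pseudogene Gm15163, for which no row of that symbol was found, so its value carries that uncertainty. Sucla2, the ADP-dependent β subunit, was counted at 26.9, 29.6 and 29.8 CPM in WT and 26.4, 26.1 and 27.1 CPM in KO, with WT replicate 1 within the KO range. Its log2 fold change was -0.12 (95% confidence interval -0.23 to -0.0039, adjusted p = 0.130, edgeR), and without WT replicate 1 it was -0.17 and passed the test. Sucla2 lies on chromosome 14 from 73525319 to 73596142 on the plus strand.

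The difference between the subunits was tested on their ratios within each library, where the scaling of the libraries cancels. The log2 ratio of Suclg1 to Suclg2 was 0.18, 0.33 and 0.44 in WT and -0.29, -0.32 and -0.43 in KO. That of Suclg1 to Sucla2 was 0.82, 0.76 and 0.86 in WT and 0.38, 0.33 and 0.32 in KO. In both, each KO library was below each WT library, with mean differences of -0.66 and -0.47. An exact two-sided permutation test of 3 against 3 libraries cannot go below p = 0.1, the value both ratios gave (0.114 adjusted over the 8 ratios with Suclg1). Per kb of transcript, the α subunit stood at 1.34 ± 0.069 times the sum of both β subunits in WT (SD, n = 3) and at 0.901 ± 0.031 times in KO (SD, n = 3). This sum and the per-kb ratio of the β subunits were chosen after the values were seen, and their levels depend on the transcript length used. Suclg2 over Sucla2 per kb was 0.937 ± 0.083 in WT (SD, n = 3) and 1.07 ± 0.042 in KO (SD, n = 3). Each KO library was above each WT library (exact permutation p = 0.1), though WT replicate 1 (1.032) nearly reached KO replicate 2 (1.036). The planned log2 ratio of Sucla2 to Suclg2, without lengths, differed by -0.19 (exact permutation p = 0.1, 0.133 adjusted over the 4 ratios between subunits).

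**Figure D2:**
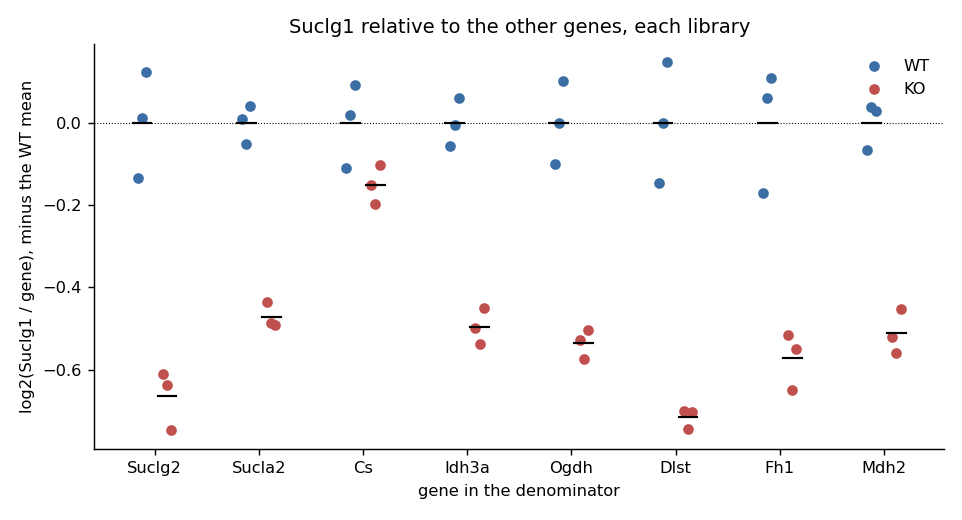
Log2 ratio of Suclg1 to each of the other 8 cycle genes in each library, with the WT mean of that ratio set to 0. KO points lie below WT points for 7 genes, and the groups overlap for Cs.

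Against the other steps of the cycle, Suclg1 was lower in KO relative to Idh3a (mean difference of the log2 ratio -0.50), Ogdh (-0.54), Dlst (-0.72), Fh1 (-0.57) and Mdh2 (-0.51), with no overlap between the groups. Each gave an exact permutation p of 0.1, the smallest possible. The ratio of Suclg1 to Cs differed by -0.15, its groups overlapped, and the exact permutation p was 0.2, so these libraries did not separate the changes of Suclg1 and Cs.

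Cs, citrate synthase, condenses acetyl-CoA with oxaloacetate and is the entry step of the cycle. It was counted at 198.6, 192.2 and 196.2 CPM in WT and 147.5, 145.3 and 141.0 CPM in KO. The KO libraries were all below the WT libraries, and the gap between the groups was several times the range within either. The mean fell from 195.7 ± 3.21 CPM (SD, n = 3) to 144.6 ± 3.29 CPM (SD, n = 3), with a log2 fold change of -0.44 (SE 0.033, 95% confidence interval -0.51 to -0.36, adjusted p = 7.26e-07, edgeR). This is a 1.35-fold difference, under the study's cutoff of 1.5-fold. Cs lies on chromosome 10 from 128337734 to 128362479 on the plus strand, contains the snoRNA gene Gm23182 and shares 2.01% of its 50-base stretches with Csl, which was counted at no more than 0.0482 CPM.

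The sequences before the start sites of Suclg1 and Cs are shown because Zfp335 is a transcription factor and its loss was the perturbation. RefSeq promoter entries on GRCm38.p6 were matched for 8 of the 9 genes, and Idh3a had no entry. The Suclg1 stretch is chr6:73248255-73248381 (127 bases, plus strand, up to the first annotated exon base), and the Cs stretch is chr10:128337477-128337726 (250 bases, plus strand). For Suclg1 the RefSeq start site lies further on, and the bases up to 73248504, inside the annotated gene, were searched but are not shown. Capitals mark CCAAT.
Suclg1: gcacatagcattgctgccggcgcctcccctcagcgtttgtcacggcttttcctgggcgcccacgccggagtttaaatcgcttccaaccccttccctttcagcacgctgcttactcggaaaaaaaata
Cs: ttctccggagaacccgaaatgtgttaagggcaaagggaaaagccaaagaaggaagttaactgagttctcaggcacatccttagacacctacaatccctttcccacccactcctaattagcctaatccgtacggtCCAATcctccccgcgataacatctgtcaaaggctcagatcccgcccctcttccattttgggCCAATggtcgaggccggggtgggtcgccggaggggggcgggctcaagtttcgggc
The 250 bases before each first-listed start site were searched on both strands for 5 motifs: GCGCATGC (NRF1-type), CCGGAAG (ETS-type), AAGATGGC (YY1-type), TGACCTTG (estrogen-related receptor-type) and CCAAT. Cs held CCAAT at positions -116 and -55, counted from its start site, and Suclg1 held none of the 5. CCAAT was found in 4 of the 8 genes, and in 33.8% of all 32851 RefSeq promoters. The other 4 motifs were found in 0 of the 8, and in 2.26%, 6.91%, 1.56% and 1.33% of all promoters in the order given. The shares of all promoters count every listed start site, whereas the 8 genes were counted at the first alone. Later-listed start sites of Ogdh held GCGCATGC, at positions -15 and -36. All of these are matches of letters only, none of the 5 motifs is named for Zfp335, and no binding was measured in these libraries. The paper did measure Zfp335 binding, by ChIP-Seq in WT Tregs. Among its selected genes, which included Suclg1, it reported binding at the promoters of Actr2, Ndufa4 and Hadha.

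Idh3a, the catalytic α subunit of NAD-dependent isocitrate dehydrogenase, was counted at 55.5, 56.7 and 58.2 CPM in WT and 54.5, 53.4 and 52.0 CPM in KO. The groups did not overlap but lay close together. Its log2 fold change was -0.090 (95% confidence interval -0.17 to -0.0059, adjusted p = 0.118, edgeR). Relative to the β subunit Idh3b the log2 ratio differed by -0.025 (exact permutation p = 0.5), and relative to the γ subunit Idh3g by -0.11 with no overlap (exact permutation p = 0.1, 0.133 adjusted over the 4 ratios between subunits). Idh3a lies on chromosome 9 from 54586334 to 54604661 on the plus strand.

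Ogdh and Dlst encode the first and second components of the α-ketoglutarate dehydrogenase complex, which makes succinyl-CoA. Ogdh (chromosome 11, 6291633 to 6356642, plus strand) was counted at 255.3, 252.2 and 252.4 CPM in WT and 248.3, 244.2 and 241.1 CPM in KO, with a log2 fold change of -0.051 (95% confidence interval -0.12 to 0.015, adjusted p = 0.265, edgeR). Dlst (chromosome 12, 85110833 to 85134845, plus strand) was counted at 146.6, 140.3 and 135.9 CPM in WT and 155.4, 153.0 and 153.7 CPM in KO. The components thus lay on opposite sides of WT, Ogdh with all KO libraries below and Dlst with all KO libraries above, and of the pair Dlst passed the test. The mean of Dlst rose from 140.9 ± 5.36 CPM (SD, n = 3) to 154.0 ± 1.24 CPM (SD, n = 3), with a log2 fold change of 0.13 (SE 0.036, 95% confidence interval 0.051 to 0.20, adjusted p = 0.0190, edgeR). The Dlst call was lost with library size alone as the scaling (log2 fold change 0.097) and in 4 of the 6 fits without 1 library, those without WT replicate 2 or KO replicate 1, 2 or 3. The log2 ratio of Ogdh to Dlst was 0.80 to 0.89 in WT and 0.65 to 0.68 in KO, a difference of -0.18 (exact permutation p = 0.1, adjusted 0.133).

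Neither gene of the last steps of the cycle passed the test. Fh1, fumarase, which hydrates fumarate to malate, was counted at 44.9, 40.5 and 42.0 CPM in WT and 41.2, 43.1 and 41.7 CPM in KO (log2 fold change -0.016, 95% confidence interval -0.12 to 0.085, adjusted p = 0.852, edgeR). The KO values fell within the WT range, and without WT replicate 1 the sign turned (0.027). Fh1 (chromosome 1, 175600374 to 175625635, minus strand) overlaps Kmo on the other strand with no shared exon base. Mdh2, the mitochondrial malate dehydrogenase, was counted at 230.5, 226.8 and 245.3 CPM in WT and 228.0, 223.4 and 214.9 CPM in KO (log2 fold change -0.076, 95% confidence interval -0.16 to 0.0062, adjusted p = 0.177, edgeR). The WT libraries reached higher, but the ranges overlapped, and without WT replicate 3 the log2 fold change was -0.041. Mdh2 lies on chromosome 5 from 135778480 to 135790398 on the plus strand.

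**Figure D3:**
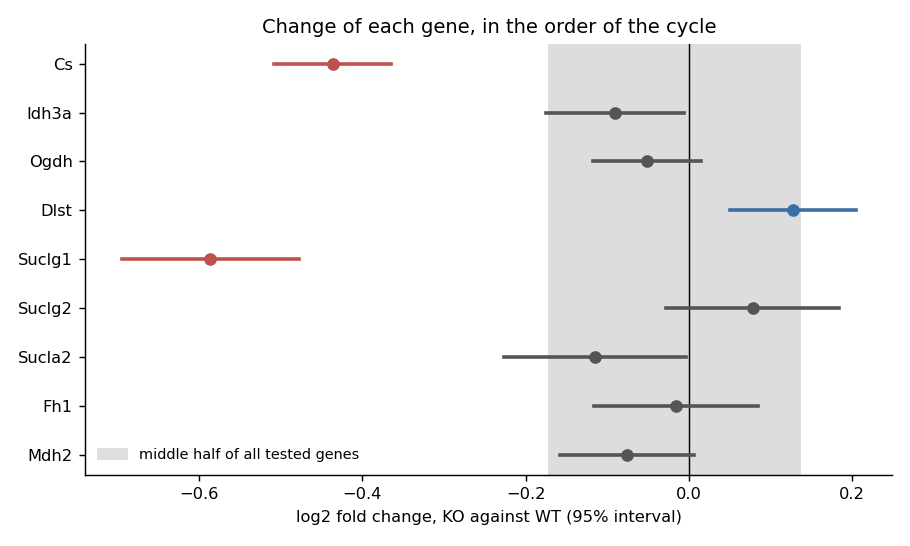
Log2 fold change (KO against WT) of each of the 9 genes in the order of the cycle, with its 95% confidence interval. The intervals of Suclg1 and Cs lie far below 0, that of Dlst lies above 0, and the 6 genes that were not called have intervals between -0.23 and 0.18.

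For the 6 genes that did not pass the test, log2 fold changes were between -0.12 and 0.078. Every KO library was below every WT library for 4 of the 9 genes (Suclg1, Cs, Idh3a and Ogdh), against 19.1% of all genes tested, and above for 1 (Dlst), against 19.3%. The 9 genes summed to 1048, 1029 and 1054 CPM in WT and 978, 962 and 951 CPM in KO, and most of that gap came from Cs and Suclg1.

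Levels were compared between genes as CPM per kb of the longest principal transcript. In WT the order from the highest was Mdh2 (160.8), Cs (66.9), Ogdh (61.4), Dlst (51.0), Suclg1 (33.4), Idh3a (23.6), Fh1 (16.1), Sucla2 (12.9) and Suclg2 (12.1), and in this order Sucla2 and Suclg2 overlapped over the 3 libraries while the other neighbours did not. In KO, Cs came after Ogdh and Dlst, at 49.4 per kb against 59.2 and 55.7. Suclg1 and Idh3a overlapped in KO, both at 22.2 per kb, as did Suclg2 (12.7) and Sucla2 (11.9). The order depends on the length used: with all exons merged, a length added once the values were known, Suclg1 was the 7th of the 9 in WT and overlapped with Idh3a, and Cs was the 3rd in both groups (33.9 per kb in WT and 25.02 in KO), so its change of place was not seen with that length.

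**Figure D4:**
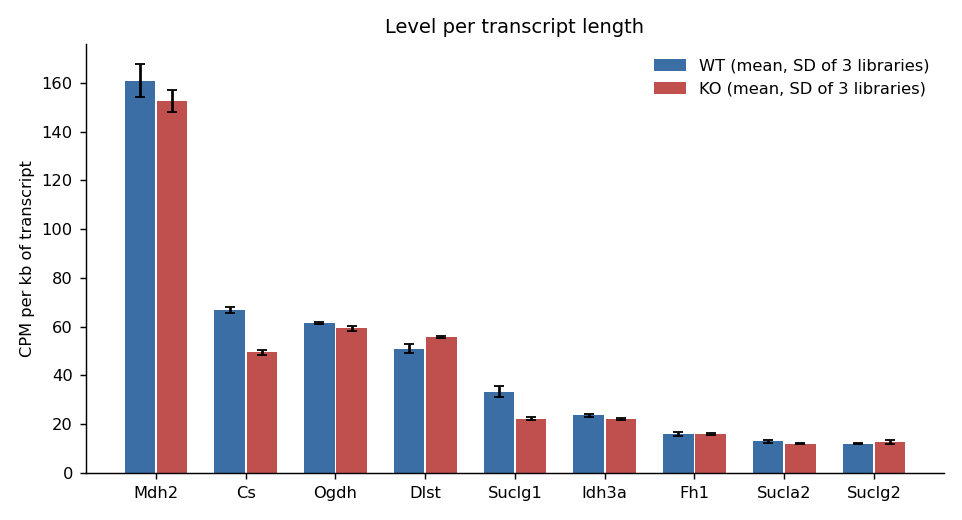
Level of each cycle gene in CPM per kb of its longest principal transcript, as group means with SD over 3 libraries per group. Cs stands at 66.9 per kb in WT and 49.4 per kb in KO, and its place among the genes depends on the length used.

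Around the 9 genes, 59 further genes of 6 lists were examined, of which 57 were tested, and 6 were lower, 6 higher and 45 not called. Their median log2 fold change was 0.014. The counts were lowest without KO replicate 3, at 2 lower and 2 higher. The lists were described by counts beside the shares of all genes given above (12.1% lower, 12% higher).

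Of the remaining subunits of the cycle, 0 of 10 genes (among them Idh3b, Idh3g, Idh2, Dld, Mrps36 and the succinate dehydrogenase genes Sdha, Sdhb, Sdhc and Sdhd) were called by edgeR, DESeq2 or limma-voom, with log2 fold changes from -0.12 to 0.050 and a median of 0.018, and in edgeR Sdhc alone had an unadjusted p under 0.05 (0.0491). Of the 10 lipoic acid attachment genes, which equip Dlst with its cofactor, these tools called 0 as well, with a median of 0.00013 and a range from -0.21 to 0.17, and in edgeR Iba57 alone had an unadjusted p under 0.05 (0.0281). Sdhc and Iba57, and Glud1 below, were named after their values were seen.

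Pyruvate entry had 13 genes, of which 12 were tested, with 1 lower and 2 higher. Pdhb, the β subunit of pyruvate dehydrogenase, was counted at 86.6, 84.4 and 82.4 CPM in WT and 93.8, 92.8 and 93.4 CPM in KO, with no overlap (log2 fold change 0.14, adjusted p = 0.00914, edgeR). Pdk2, a kinase that inhibits the same complex, had a log2 fold change of 0.18 (adjusted p = 0.0329, edgeR). Pdhx, which tethers a component of the complex, had one of -0.20 (adjusted p = 0.0298, edgeR).

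Succinyl-CoA supply and use had 10 genes, with 3 lower and 1 higher, and a median of -0.096. Oxct1, which transfers CoA from succinyl-CoA to ketone bodies, was counted at 58.5, 62.0 and 63.6 CPM in WT and 54.0, 53.5 and 51.0 CPM in KO, with no overlap (log2 fold change -0.21, adjusted p = 0.00275, edgeR). Mmut, methylmalonyl-CoA mutase, and Mmaa, which helps load its cobalamin cofactor, both act on the route from propionyl-CoA to succinyl-CoA. They had log2 fold changes of -0.23 (adjusted p = 0.0315, edgeR) and -0.35 (adjusted p = 0.00922, edgeR). Aldh6a1, a dehydrogenase of valine breakdown, rose by 0.23 on the log2 scale (adjusted p = 0.0239, edgeR).

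Anaplerosis and glutamine entry had 9 genes, of which 8 were tested, with 2 higher by edgeR and 0 lower by edgeR, DESeq2 or limma-voom, and Glud1 (log2 fold change -0.071, unadjusted p 0.0355) was the only 1 lower at an unadjusted p under 0.05. Gls2, a glutaminase, was weakly expressed, at 0.572, 0.756 and 0.899 CPM in WT and 1.07, 1.05 and 1.62 CPM in KO (log2 fold change 0.77, SE 0.24, adjusted p = 0.0340, edgeR). Gpt2, mitochondrial alanine aminotransferase, had a log2 fold change of 0.31 (adjusted p = 0.0344, edgeR), and with a block on the replicate number its adjusted p was 0.0503 (edgeR).

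The list of cytosolic counterparts had 7 genes, with 2 lower and 1 higher. Got1, the cytosolic aspartate aminotransferase of the malate-aspartate shuttle, was counted at 48.2, 49.5 and 49.7 CPM in WT and 61.5, 65.5 and 60.6 CPM in KO, with no overlap (log2 fold change 0.35, SE 0.042, adjusted p = 4.45e-05, edgeR). Idh1, the cytosolic NADP-dependent isocitrate dehydrogenase, was counted at 4.85, 5.87 and 5.51 CPM in WT and 4.17, 3.91 and 4.004 CPM in KO (log2 fold change -0.43, adjusted p = 0.00618, edgeR). Fahd1, an oxaloacetate decarboxylase, stayed on this list although the enzyme is known to be mitochondrial, and had a log2 fold change of -0.66 (adjusted p = 0.0177, edgeR) at 0.892 to 1.89 CPM. Of the 12 called genes in the 6 lists, Pdhb, Oxct1, Idh1 and Got1 (4 genes) kept their call under all 16 alternative settings, and the other 8 lost it under at least 1.

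**Figure D5:**
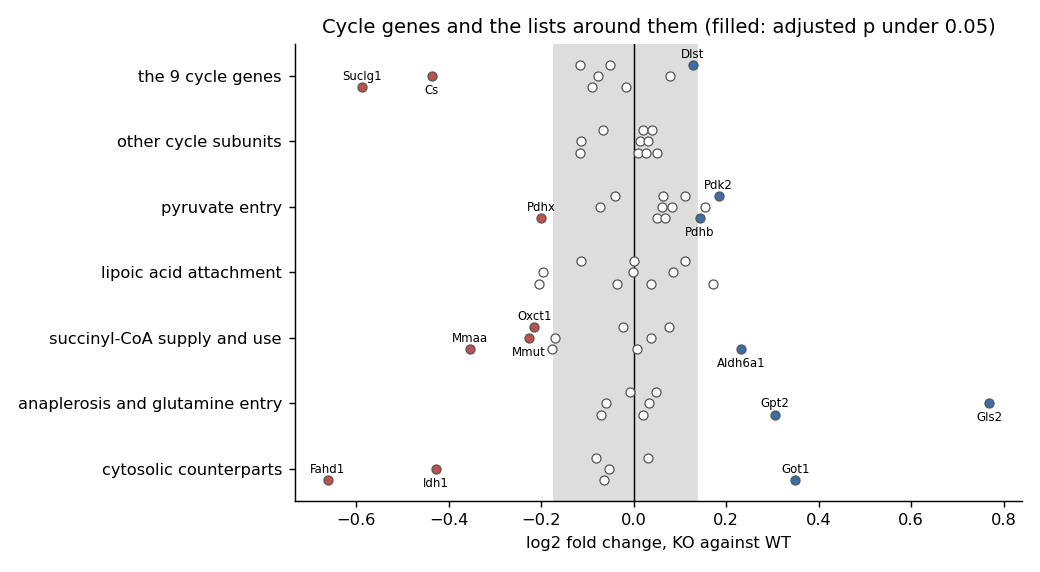
Log2 fold change (KO against WT) of the 9 cycle genes and of the tested genes of the 6 lists around them, 1 point per gene, filled where the adjusted p was under 0.05, with the band from the lower to the upper quartile of all genes tested (-0.17 to 0.14) in grey. The other cycle subunits all lie inside the band, as do most of the 9 cycle genes, and Suclg1, Cs, Fahd1 and Gls2 are among those far outside it.

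Genes most like Suclg1 across the libraries were ranked by Pearson's r of log2 CPM over 6 libraries among 11077 genes whose log2 CPM averaged 1 or more. The highest were Cox7a2l (0.9993), Gbp10 (0.9992), Hnrnpf (0.9982), Rpl7 (0.9982) and Dgkh (0.9977). Among the cycle genes Cs had an r of 0.973, Idh3a 0.907, Ogdh 0.850, Sucla2 0.839, Mdh2 0.743, Fh1 0.033, Suclg2 -0.605 and Dlst -0.949. The libraries form 2 groups and share the contrast tested above, so these values mostly order genes by that contrast and carry no test. Cox7a2l, which helps assemble respiratory supercomplexes, was counted at 210.8, 219.7 and 228.9 CPM in WT and 164.0, 157.1 and 163.6 CPM in KO.

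The falls in Suclg1 and Cs stood beside lower summed markers of B cells, myeloid cells and red cells in KO, although the myeloid marker Csf1r was not lower. Any part of these cells in the falls was not tested.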

How the data were processed

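Bulk RNA-seq of splenic CD4+CD25+ Tregs was analysed in 3 WT and 3 KO libraries, grouped by the sample labels. The values deposited are raw counts that the authors gave for each gene symbol; 40 of the 32285 rows repeat a symbol, and the row with the most counts was used under it. The submitters' processing notes name HISAT2, DESeq2 and the mm10 build, and how reads were counted and whether by strand is not given in the sources used here. The members and gene lists were chosen with earlier results of these data known.

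Counts were tested in R 4.3.3 with the quasi-likelihood test of edgeR 4.0.16 (robust, newer method), TMM scaling (factors 0.987 to 1.014) and filterByExpr, which kept 17307 genes. CPM used the scaled library sizes, ratios were taken on log2 CPM (prior count 2), and single values had exact two-sided permutation tests in SciPy 1.17.1. Replicate pairs differed by 11 to 49.2 times the sampling variance (chi-square per degree of freedom), so no pair was treated as 1 sample. Positions and lengths came from GENCODE M21 on GRCm38, the build called mm10, and shared stretches were 50 bases long. Genes were named as follows: the 9 members, Zfp335, up to 4 called genes with the largest change per list, the 5 genes most like Suclg1 and genes overlapping a member; Xist, Ddx3y and Sdhc, Iba57, Glud1 fall outside this rule, and some items are not reported here. The 5 promoter motifs were chosen after the count table was seen. Alternatives were other scalings and filters, DESeq2 1.42.0, limma-voom (limma 3.58.1), edgeR's legacy method, a replicate block, abundant RNA classes left out, the study's cutoffs and leaving out each library. The fits were tested on simulated data. A first check of recovery over all genes failed because weakly expressed genes were missed. It was then limited to genes whose log2 CPM averaged 1 or more, where the 9 members lie.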

Additional observations from a re-analysis of the deposited data

How the results depend on the processing

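Suclg1 and Cs kept their direction and their call under all 16 alternatives, with log2 fold changes of -0.63 to -0.54 (adjusted p up to 7.42e-05) and -0.47 to -0.42 (adjusted p up to 3.09e-05). Without 1 library each, Suclg1 ranged from -0.63 to -0.54, Sucla2 from -0.17 to -0.091, Idh3a from -0.11 to -0.072, Suclg2 from 0.030 (without KO replicate 3) to 0.11, Mdh2 from -0.098 to -0.041 (without WT replicate 3), Dlst from 0.10 to 0.16 and Fh1 from -0.050 to 0.027, which reversed its sign without WT replicate 1. Sucla2 and Idh3a were called lower without WT replicate 1, which made 4 members lower instead of 2 (range 2 to 4), and Dlst was not called without WT replicate 2 or KO replicate 1, 2 or 3, which left 0 higher (range 0 to 1). With library size only, the median log2 fold change of all genes moved by -0.031 against the main fit. Under that setting Idh3a was called (-0.12), Dlst was not (0.097), 0 members were higher, and 11 list genes were lower instead of 6. Any further cause was not tested. Without 1 library, list genes called lower ranged from 2 (without KO replicate 3) to 8 and higher from 2 (without KO replicate 3) to 6, with 3 higher without WT replicate 2 or KO replicate 2, and all genes called higher from 1341 (without WT replicate 2) to 2495. With the study's cutoffs on the main edgeR fit, 1 member was lower and 0 higher, and 757 and 446 of all genes. No scaling moved the median of all genes by more than 0.031 on the log2 scale.

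Same-numbered libraries shared only a number (correlations of deviations 0.052, -0.0098 and -0.027). With the replicate block, Suclg1 was at -0.59 and Cs at -0.44, 2 members were lower and 1 higher, of the 12 called list genes Gpt2 lost its call, and 2084 genes were lower and 2143 higher. The standard errors of the 9 members, 0.031 to 0.052 on the log2 scale, limit the size of change that could be called.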
